A study of Mus musculus with 8 samples.

Results

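The 10 genes described here encode parts of the elastic fibre and the enzymes that cross-link it. They are the elastic fibre protein genes Eln, Fbn1, Fbln5, Emilin1 and Mfap4, and the lysyl oxidase genes Lox, Loxl1, Loxl2, Loxl3 and Loxl4. They were chosen by symbol, and all 10 were found among the 23284 genes of the deposited table. RNA was measured in whole lungs of 8 wild-type (WT) C57BL/6 mice that had received a bone marrow transplant and then spent 3 days in hypoxia. In 4 mice the donor marrow was triply n/i/eNOS-/-, lacking the neuronal, inducible and endothelial nitric oxide synthases, and is named NOS-null marrow below. The other 4 mice received WT marrow. The series title sets the work in hypoxia-induced pulmonary hypertension and the nitric oxide synthases of myeloid cells. The recipients' own lung cells kept their synthase genes, the share of donor cells was not measured here, and the labels give neither age nor sex. Both groups were hypoxic, and normoxic lungs were not analysed here.

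Elastic fibres let arteries, airways and alveolar walls stretch and recoil. Elastin monomers are deposited on microfibrils made largely of fibrillin-1, with fibulin-5, EMILIN-1 and MFAP4 as proteins that bind and organise them. Lysyl oxidases are copper-dependent enzymes that oxidise lysine side chains of elastin and collagen, which then form the cross-links that make the matrix insoluble. In the lung, smooth muscle cells and fibroblasts are known sources of these proteins.

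The unit is the scaled read, a read count that the authors had scaled between libraries. Means carry their SD over the 4 libraries of a group (n = 4). A log2 change subtracts WT marrow from NOS-null marrow on the log2(scaled reads + 1) scale and carries its standard error (SE) from limma. A gene was called where its adjusted p (Benjamini-Hochberg, over the 14008 genes tested) was under 0.05. Libraries summed to 7767065 to 8625142 scaled reads. The club cell gene Scgb1a1 and the alveolar type 2 gene Sftpc were high in both groups. Nos2, the targeted gene that was called, stood at 13.3 to 43.5 scaled reads with NOS-null marrow and 87.4 to 115 with WT marrow (log2 change −1.84, adjusted p = 0.0221). Nos3 did not pass (adjusted p = 0.701), and Nos1 was listed at 0 in 7 of the 8 libraries. On the first principal component (49.2% of the variance) NOS-null marrow replicates 1 and 2 lay at −57.7 and −32.3, the other pair at −3.35 and −1.41, and WT marrow at 17.7 to 27.2. How the mice of a group relate is not in the labels, and the p-values cover the spread among these libraries only.

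Loxl2 was lower with NOS-null marrow, and it was the 1 member that passed the test. The other 4 lysyl oxidase genes and the 5 elastic fibre protein genes did not pass. Across all tested genes 4.05% were called, 2.18% lower and 1.87% higher. Before adjustment 5 members were lower and 1 was higher at p under 0.05, where 26.6% of all tested genes passed, 13.3% in each direction. The sign of the log2 change was negative for 8 members and positive for Lox and Loxl4. The median over the 10 was −0.27, beside 0.0005 over all tested genes. Without NOS-null marrow replicate 1 the median over the 10 was −0.12, and without both replicates 1 and 2 it was −0.07. In each of these fits 6 members were negative.

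**Figure D1:**
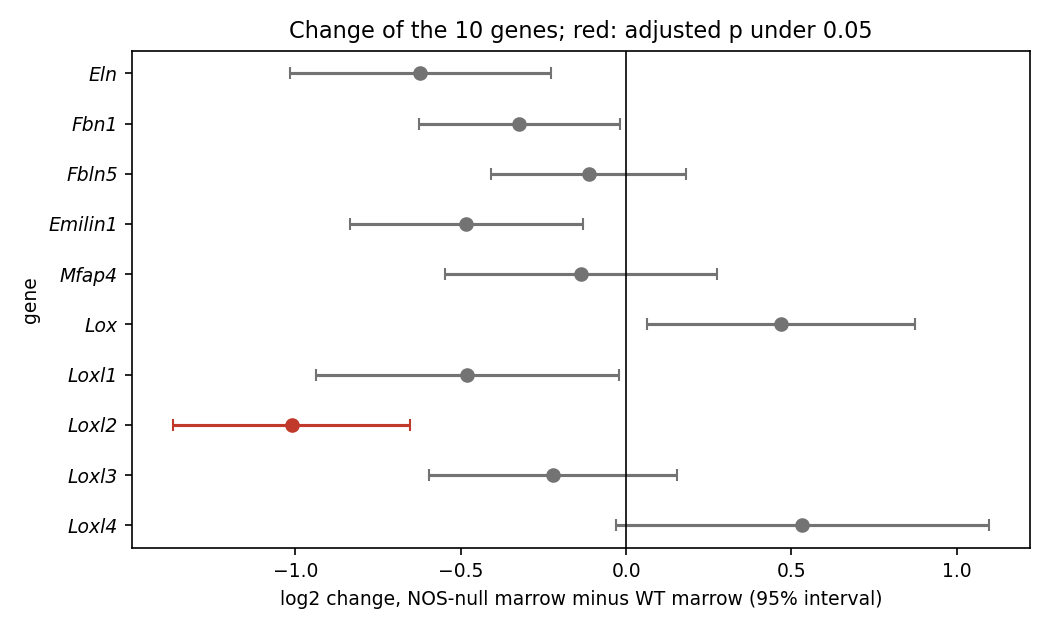
Log2 change of each member, NOS-null marrow minus WT marrow (x axis), with its 95% interval from limma. Loxl2, in red, passed at an adjusted p under 0.05, and the 9 in grey did not.

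Loxl2 encodes a lysyl oxidase with scavenger receptor domains that acts on collagen IV and fibrillar collagen. The gene lies on chromosome 14 (69609068 to 69695834, plus strand, GRCm38). It stood at 453, 692, 753 and 785 scaled reads in NOS-null marrow replicates 1 to 4, against 1286, 1264, 1227 and 1545 in WT marrow replicates 1 to 4. The lowest WT marrow library was above the highest NOS-null marrow library, and replicate 1 was the lowest of the NOS-null marrow group. The means were 671 ± 150.3 and 1330.2 ± 145, a level 2.02-fold lower (log2 change −1.01, SE 0.16, 95% interval −1.37 to −0.65, adjusted p = 0.0146 by limma). Loxl2 also passed without both NOS-null marrow replicates 1 and 2 (−0.78, adjusted p = 0.00422). Leaving out replicate 1 of WT marrow ended the call (−1.03, adjusted p = 0.0606), as did leaving out replicate 2 (−1.03, adjusted p = 0.0515).

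Lox, the founding member of the enzyme family, had the opposite sign. It was at 1805, 2561, 1471 and 1236 scaled reads in NOS-null marrow replicates 1 to 4. The 4 WT marrow libraries were close together, at 1211, 1203, 1281 and 1226. Replicates 1, 2 and 3 were above every WT marrow library, and replicate 4 was within their range. The log2 change was 0.47 (SE 0.18, 95% interval 0.06 to 0.87) and did not pass (adjusted p = 0.141). Without NOS-null marrow replicates 1 and 2 it was 0.13.

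Loxl1, whose enzyme is tied to elastin renewal through fibulin-5 (chromosome 9, 58287738 to 58313186, minus strand), was at 824, 842, 1507 and 1242 scaled reads in NOS-null marrow replicates 1 to 4. In WT marrow it was at 1499, 1161, 1483 and 1907. Replicates 1 and 2 were below every WT marrow library, whereas replicate 3 was above 3 of the 4. The log2 change of −0.48 (SE 0.21) did not pass (adjusted p = 0.172), and it was −0.12 without replicates 1 and 2.

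Loxl3 and Loxl4 encode scavenger receptor domain enzymes related to Loxl2. Loxl3 (chromosome 6, 83034173 to 83052562, plus strand) was at 77.9 scaled reads in replicate 1 of NOS-null marrow, 120 to 134 in the other 3, against 113 to 141 in WT marrow (log2 change −0.22, adjusted p = 0.418). Its exons share 535 bases with exons of Htra2 on the opposite strand, and the strand setting of the counting is not given in the sources used here, so part of its reads may belong to Htra2. Loxl4 (chromosome 19, 42593982 to 42612813, minus strand) was at 32.8, 77.0, 57.2 and 39.2 in NOS-null marrow replicates 1 to 4 and 29.0 to 36.5 in WT marrow. Its highest values were in replicates 2 and 3, replicate 1 was within the WT marrow range, and the change did not pass (0.53, SE 0.25, adjusted p = 0.211).

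**Figure D2:**
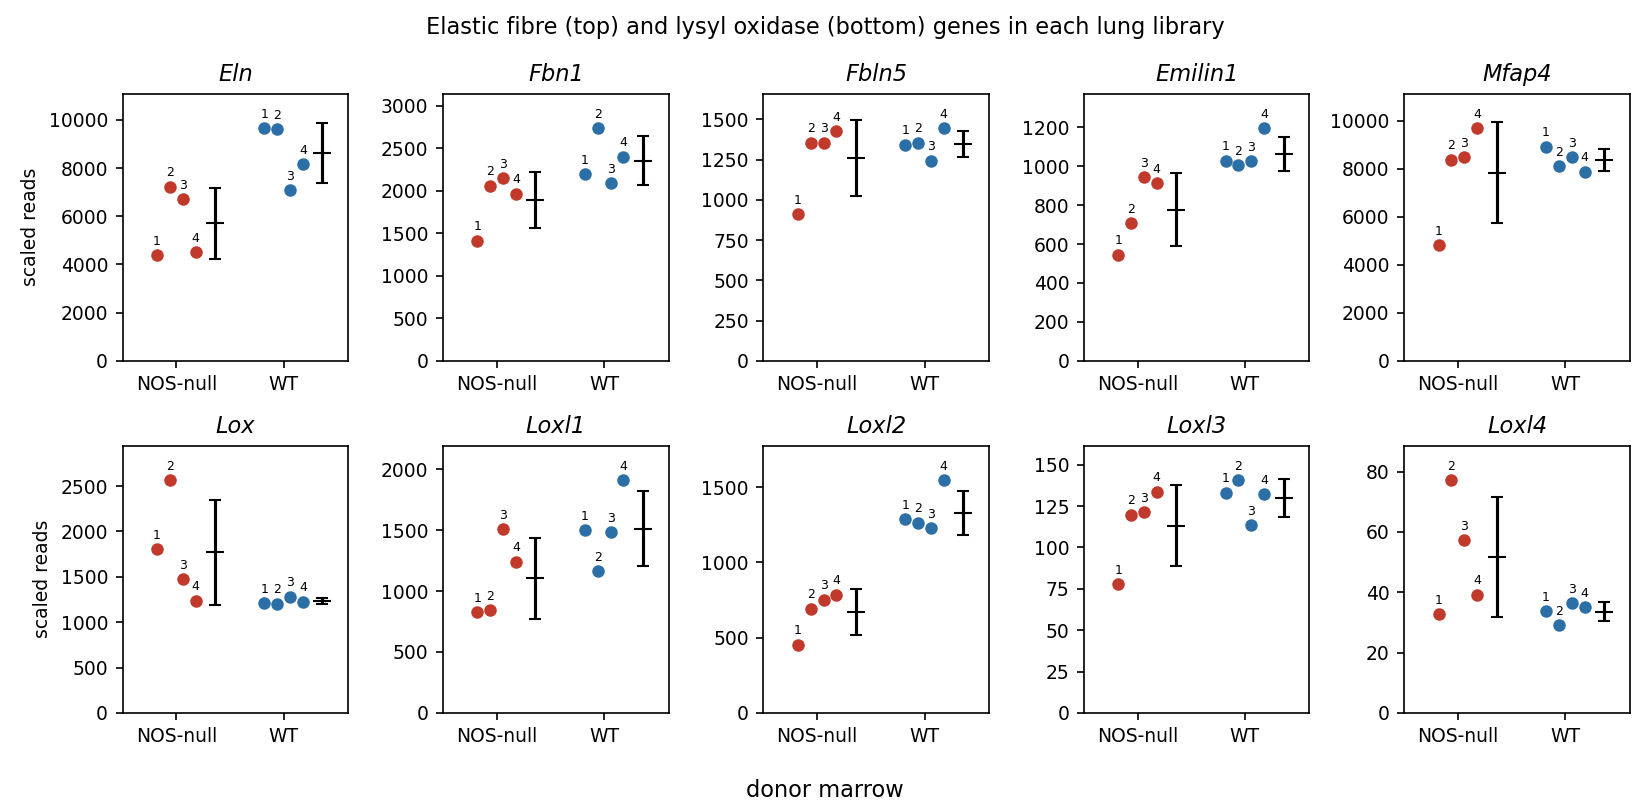
Scaled reads of each member (y axis, from 0) in the 4 NOS-null marrow (red) and 4 WT marrow (blue) libraries, labelled by replicate number, with mean and SD in black. Loxl2 and Emilin1 are the panels whose groups do not overlap.

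Levels can be compared between genes only per transcript length, so the deposited FPKM values (fragments per length of transcript and depth of library) were used for that. On this scale Loxl1 led the 5 lysyl oxidases in WT marrow, with 41.6 ± 4.02% of their summed FPKM, followed by Lox (31.7 ± 3.20%) and Loxl2 (23.2 ± 1.32%). As shares, the ranges of Loxl1 and Lox did not overlap in WT marrow, nor did those of Lox and Loxl2. In FPKM the WT marrow ranges of Loxl1 (44.2 to 72.6) and Lox (42.2 to 45.0) overlapped. The ratio of Loxl1 to Lox FPKM was 1.05 to 1.69 in those libraries. Loxl3 held 2.60 to 3.58% and Loxl4 0.506 to 0.615%. In NOS-null marrow Lox held 58.2, 62.4, 39.1 and 37.9% in replicates 1 to 4, and Loxl2 9.99, 11.5, 13.7 and 16.4%. Lox was therefore the leading lysyl oxidase in replicates 1 and 2, and Loxl1 in replicates 3 and 4. The ratio of Loxl2 to Lox FPKM was 0.171, 0.185, 0.350 and 0.434 in NOS-null marrow and 0.654 to 0.860 in WT marrow, without overlap. Loxl2 FPKM itself did not overlap between the groups. Lox FPKM was at least 43.4 in NOS-null marrow and at most 45.0 in WT marrow. The gap in the ratio therefore follows from that in Loxl2 and is not a separate result. The summed FPKM of the 5 was 109 to 144 in NOS-null marrow and 122 to 158 in WT marrow, and these ranges overlapped. No test was made of the ratio or the shares.

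**Figure D3:**
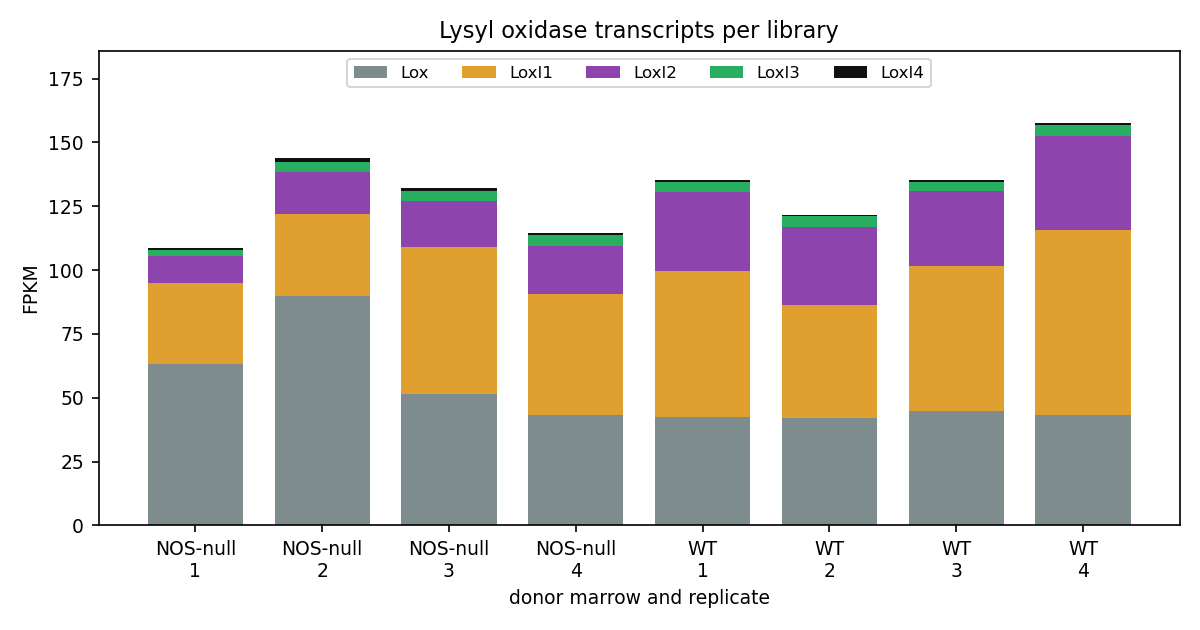
FPKM of the 5 lysyl oxidase genes stacked for each library (x axis: donor marrow and replicate). The Loxl2 segment spans 10.9 to 18.8 FPKM with NOS-null marrow and 29.4 to 37.0 with WT marrow, and the Lox segment is tallest in NOS-null marrow replicate 2 at 89.9.

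Among the elastic fibre protein genes none was called, and before adjustment Eln, Fbn1 and Emilin1 were lower at p under 0.05 by limma. Eln encodes elastin itself (chromosome 5, 134702593 to 134747323, minus strand). It stood at 4375, 7219, 6706 and 4498 scaled reads in NOS-null marrow replicates 1 to 4, against 9645, 9605, 7085 and 8152 in WT marrow. Replicates 1 and 4 were well below every WT marrow library, while replicates 2 and 3 lay near the lowest of them, WT marrow replicate 3. The means were 5699 ± 1474 and 8622 ± 1237 (log2 change −0.62, SE 0.18, 95% interval −1.02 to −0.23), and the change did not pass (adjusted p = 0.0684). It was of similar size without both NOS-null marrow replicates 1 and 2 (−0.64, adjusted p = 0.0975).

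Emilin1, the gene of the glycoprotein found where elastin meets microfibrils (chromosome 5, 30913402 to 30921277, plus strand), was the other member whose groups did not overlap. It was at 544, 708, 944 and 911 scaled reads in NOS-null marrow replicates 1 to 4 and at 1028, 1006, 1027 and 1195 in WT marrow. In 2 of the 10 members the 4 NOS-null marrow values lay below the 4 WT marrow values and in none above. Of all tested genes 17.1% were separated, 9.29% with NOS-null marrow below and 7.82% above. The log2 change of −0.48 (SE 0.16) did not pass (adjusted p = 0.0964), and it was −0.19 without NOS-null marrow replicates 1 and 2. Replicate 1 was the lowest library and replicates 3 and 4 were close to WT marrow.

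Fbn1, which encodes fibrillin-1 (chromosome 2, 125300594 to 125507993, minus strand), was at 1412, 2057, 2143 and 1964 scaled reads in NOS-null marrow replicates 1 to 4. In WT marrow it was at 2191, 2731, 2086 and 2399. The groups overlapped, with NOS-null marrow replicate 1 the lowest and WT marrow replicate 2 the highest. The log2 change was −0.32 (SE 0.14, adjusted p = 0.167).

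Fbln5 and Mfap4 were below the WT marrow range in NOS-null marrow replicate 1, and Mfap4 was above it in replicate 4. Fbln5, the gene of fibulin-5, which brings elastin to microfibrils (chromosome 12, 101746565 to 101819055, minus strand), was at 909 scaled reads in replicate 1 of NOS-null marrow, 1356 to 1426 in the other 3, against 1245 to 1444 in WT marrow. Mfap4, a microfibril-associated glycoprotein gene (chromosome 11, 61485431 to 61488900, plus strand), was at 4816 in replicate 1, 8379 and 8472 in replicates 2 and 3 and 9685 in replicate 4, against 7886 to 8919 in WT marrow. Their log2 changes of −0.11 (SE 0.13) and −0.14 (SE 0.19) did not pass (adjusted p = 0.607 and 0.66). Without NOS-null marrow replicate 1 both turned positive, at 0.04 and 0.08. Exons of Mfap4 share 89 bases with exons of Mapk7 on the opposite strand, and exons of Loxl2, Eln and Fbn1 share 301, 267 and 2442 bases with the opposite-strand gene models Gm27177, Gm30003 and Gm9913. Reads of such stretches cannot be told apart without strand.

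**Figure D4:**
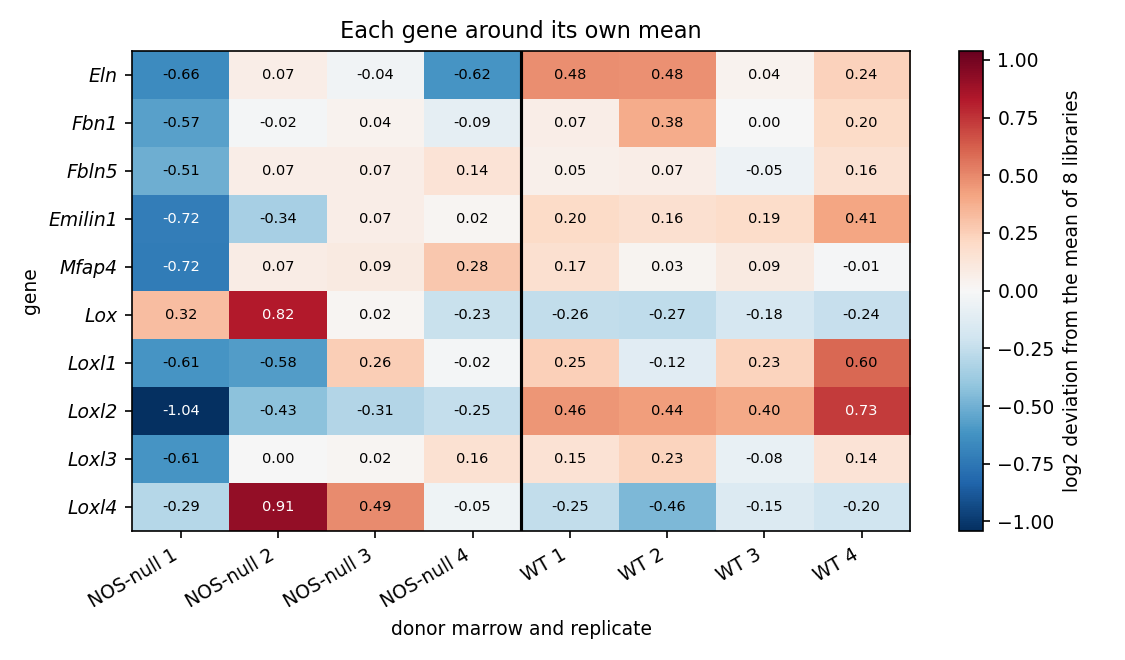
Log2 deviation of each member (rows) from its own mean over the 8 libraries (columns, NOS-null marrow left of the line, WT marrow right). The NOS-null marrow replicate 1 column is the lowest of the 8 for 8 members, and Loxl2 is negative in all 4 NOS-null marrow libraries and positive in all 4 WT marrow libraries.

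Seen by library, NOS-null marrow replicate 1 held the lowest value of the 8 for 8 of the 10 members and the highest for none. Lox and Loxl4 were the exceptions, and both had their highest value in replicate 2. Mfap4 and Eln took the first and second place in FPKM in every library, at 739 and 239 on average over the 8. They ranked 116 and 361 among the 14008 tested genes by mean FPKM, and Loxl4 ranked 13094 at 0.970 FPKM. Below Eln the order was not firm. Emilin1, Fbln5 and Fbn1 had WT marrow ranges of 36.8 to 43.7, 26.4 to 30.6 and 25.7 to 33.6 FPKM, and the last pair overlapped. Loxl2 held the sixth or the seventh place in the WT marrow libraries and the eighth in the 4 NOS-null marrow libraries.

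The genes closest to Loxl2 in pattern were found by the root mean square difference of log2 values, each centred on its mean over the 8 libraries. They were Slc46a1 (difference 0.11), 2810433D01Rik (0.11), Oaf (0.13), Pdia5 (0.14) and Casq1 (0.15). Their log2 changes were −0.92, −1.15, −0.81, −0.88 and −1.12 in that order, and 2810433D01Rik, Pdia5 and Casq1 passed. The choice by pattern took in the gap between the groups. Changes near that of Loxl2 therefore follow from it and are not a separate result. Their WT marrow means, 21.4 to 170 scaled reads, were well below that of Loxl2.

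Of 21 other tested genes of microfibrils and elastic fibre assembly, 1 rose, none fell and 20 did not pass (median log2 change −0.05). At an unadjusted p under 0.05 by limma 3 were lower and 3 higher, beside 13.3% of all tested genes in each direction. The riser was Adamtsl4, a gene for a secreted fibrillin-binding protein, at 380 to 519 scaled reads with NOS-null marrow and 211 to 351 in WT marrow libraries (a log2 change 0.72, SE 0.16, adjusted p = 0.0433). Its call was lost on leaving out NOS-null marrow replicate 1 or 2, or WT marrow replicate 1, 2 or 3 (highest adjusted p = 0.136). It was lost also without the trend, without a filter, in FPKM and with replicates 1 and 2 of NOS-null marrow both left out (adjusted p up to 0.16). Without NOS-null marrow replicate 3 the list held 2 risers and 2 that fell, and without NOS-null marrow replicate 1 it held 1 of each. Fbn2 and Emilin3 were too low to test. The 3 genes of this list with the most scaled reads, which is not a level per length, differed between groups by less than the larger SD. The small proteoglycan gene Bgn was at 12608 ± 2118 against 12661 ± 1613, Dcn at 3187 ± 303 against 2737 ± 637, and Ltbp4, which encodes a binding protein of latent TGF-beta, at 1433 ± 214 against 1260.05 ± 362.

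Lysyl oxidases need copper, and Lox and Loxl1 are made as precursors that the protease BMP1 cleaves. Of 10 tested genes of this processing and of copper supply, 1 fell, none rose and 9 did not pass (median −0.11). Of all tested genes 2.18% were called lower and 1.87% higher. Before adjustment 3 of the 10 were lower and 1 higher at p under 0.05 by limma, beside 13.3% of all tested genes in each direction. Postn, whose product periostin binds BMP1 and fibronectin, fell from 8635 ± 664 to 5906 ± 862 scaled reads (log2 change −0.56, SE 0.11, adjusted p = 0.0316). Its lowest WT marrow value was 7805 and its highest NOS-null marrow value 6811. Postn lost its call when replicate 2 of NOS-null marrow, or any single replicate of WT marrow, was left out (highest adjusted p = 0.107), and also without the trend or without both replicates 1 and 2 of NOS-null marrow. With replicate 3 or 4 of NOS-null marrow left out, 2 genes of this list fell. Tll2 was too low to test. The matrix glycoprotein gene Thbs1 was at 2169 ± 668 against 4075 ± 1041 (−0.93, adjusted p = 0.0539) without overlap. Fn1, the fibronectin gene, was at 5956 ± 1090.04 against 5526 ± 973 (adjusted p = 0.683).

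No gene among 8 tested elastin-degrading proteases was called (median 0.52). By limma 6 of them were higher at an unadjusted p under 0.05, beside 13.3% of all tested genes. With 1 library left out, 3 of these proteases were called higher without NOS-null marrow replicate 3, 2 without replicate 1 and 1 without replicate 4. Elane, Prtn3, Ctsg and Mmp7 were too low to test. The whole protease list summed to 872 and 1071 FPKM in replicates 1 and 2 of NOS-null marrow, 566 and 568 in the other pair, and 450 to 551 in WT marrow. The cathepsin gene Ctss was at 3663 and 5816 scaled reads in replicates 1 and 2, 1961 and 1957 in the other pair, and 1478 to 2159 in WT marrow (log2 change 0.75, adjusted p = 0.159). Ctsl was at 3020 ± 526 against 2435 ± 143, and the gelatinase gene Mmp2 at 1426 ± 485 against 1207 ± 157, and neither passed (adjusted p = 0.139 and 0.687).

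Of 6 tested inhibitor genes, 1 rose, none fell and 5 did not pass (median −0.0025). Of all tested genes 1.87% were called higher and 2.18% lower. Before adjustment 1 of the 6 was lower and 2 higher at p under 0.05 by limma, beside 13.3% of all tested genes in each direction. Slpi, which encodes a secreted inhibitor of neutrophil elastase, was at 310 to 781 scaled reads with NOS-null marrow and 119 to 256 in WT marrow libraries (a log2 change 1.43, SE 0.29, adjusted p = 0.0309). Like Postn, Slpi lost its call on leaving out replicate 2 of NOS-null marrow or any single replicate of WT marrow (highest adjusted p = 0.096), and likewise without the trend or without both replicates 1 and 2 of NOS-null marrow. Without replicate 4 of NOS-null marrow 2 inhibitor genes rose and 1 fell. A2m and the 5 Serpina1 genes, near-identical copies, were too low to test. Timp3, the gene of a matrix-bound metalloproteinase inhibitor, was at 20724 ± 5591 against 13261 ± 1244 and did not pass (0.61, adjusted p = 0.0698). Its groups did not overlap, but the gap was narrow. The lowest NOS-null marrow value was 14432, in replicate 4, and the highest WT marrow value 14300.5. Of all tested genes 7.82% had every NOS-null marrow value above WT marrow. Cst3, the cystatin C gene, was at 8769 ± 1193 against 9326 ± 1088 and Timp2 at 5063 ± 252 against 4787 ± 546 (adjusted p = 0.642 and 0.569). None of 7 genes of the elastin receptor complex was called by limma. Lgals3, the galectin-3 gene, alone was higher at an unadjusted p under 0.05, as were 13.3% of all tested genes. It was at 2107 ± 566 against 1621 ± 159 (adjusted p = 0.186). Ctsa was at 1633 ± 229 against 1425 ± 130.02 and the integrin gene Itgb5 at 968 ± 91.7 against 993 ± 34.8 (adjusted p = 0.28 and 0.769).

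TGF-beta is a known inducer of elastin and lysyl oxidase genes. Of 14 tested ligand, receptor and target genes, 1 fell, 1 rose and 12 did not pass (median 0.09). Of all tested genes 2.18% were called lower and 1.87% higher. Before adjustment 3 of the 14 were lower and 4 higher at p under 0.05 by limma, beside 13.3% of all tested genes in each direction. The ligand gene Tgfb2 was at 373 to 529 scaled reads with NOS-null marrow and 565 to 696 in WT marrow libraries (a log2 change −0.55, SE 0.12, adjusted p = 0.0407). The co-receptor gene Tgfbr3 was at 1318, 1286, 867 and 696 in NOS-null marrow replicates 1 to 4 and 469 to 585 in WT marrow (0.95, SE 0.19, adjusted p = 0.0309). Leaving out replicate 2 of NOS-null marrow or any single replicate of WT marrow ended both calls, and leaving out NOS-null marrow replicate 1 ended that of Tgfb2 (adjusted p up to 0.119). Neither gene passed without the trend or without both replicates 1 and 2 of NOS-null marrow (adjusted p up to 0.145). Without NOS-null marrow replicate 1, 2 genes of the list rose, and without replicate 4, 2 fell. The genes of this list with the most scaled reads, the receptor gene Tgfbr2 and the targets Ctgf, now Ccn2, and Tgfbi, did not pass (adjusted p = 0.481, 0.933 and 0.107).

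Some markers of cell types differed between the marrow groups while most did not pass, and their part in the results above was not tested. In whole lung, fewer cells of a type and less RNA per cell cannot be told apart. Of 8 smooth muscle markers, 3 fell (Acta2, Tagln and Cnn1) and none rose. Of all tested genes 2.18% were called lower and 1.87% higher. Before adjustment 4 of the 8 were lower and 1 higher at p under 0.05 by limma, beside 13.3% of all tested genes in each direction. The summed FPKM of the 8 was 996 to 1301 with NOS-null marrow and 1979 to 2214 with WT marrow. Acta2 and Tagln held 82.3 to 91.8% of that sum. Without them, a sum taken after the values were seen, the ranges overlapped, at 169 to 196 and 181 to 263. Lmod1 and Synpo2 had the opposite sign (0.34 and 0.28) and did not pass (adjusted p = 0.178 and 0.194). Acta2, smooth muscle actin, was at 6838 ± 941 against 13816 ± 1056 scaled reads (−1.02, adjusted p = 0.00248), whereas the smooth muscle myosin gene Myh11, named after its values were seen, was at 2509.75 ± 258 against 2824 ± 334 and did not pass (adjusted p = 0.309). Of 8 fibroblast markers, Inmt rose (0.50, adjusted p = 0.0398) and 7 did not pass, and the sum was 1835 to 2308 against 1438 to 1762. Inmt alone held 57.3 to 78.8% of it, and without Inmt the ranges overlapped (388 to 715 against 614 to 692). Of the 8 log2 changes 4 were negative, and their median was −0.05. Before adjustment 2 of these 8 markers were lower and 3 higher at p under 0.05 by limma. The collagen gene Col3a1 of that list was at 8186 ± 3975 against 12446 ± 1273 scaled reads (adjusted p = 0.206). Of 6 pericyte markers, Higd1b fell (−0.46, adjusted p = 0.0425) and 5 did not pass, with sums of 200.2 to 261 and 253 to 311. Before adjustment 2 of the 6 were lower and 2 higher at p under 0.05 by limma. Pdgfrb was at 1109 ± 219 against 987 ± 316 scaled reads and Notch3 at 620.5 ± 49.8 against 464 ± 95.9 (adjusted p = 0.587 and 0.0833).

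Neutrophil markers stood apart in the library that was lowest for most members. The summed FPKM of 6 genes was 41425 in NOS-null marrow replicate 1, 3760.1 in replicate 2, 1671 and 2146 in the other pair. WT marrow was at 575 to 1583. None of the 5 tested was called by limma, and 4 were higher at an unadjusted p under 0.05, beside 13.3% of all tested genes. S100a8 and S100a9, which encode the calprotectin subunits, held 79.05 to 93.3% of that sum (adjusted p = 0.124 and 0.0969). Macrophage markers summed to 2167, 1531, 821 and 1014 in NOS-null marrow replicates 1 to 4 and 620 to 743 in WT marrow. Chi3l3 held 76.8 to 92.0% of that sum, at 7576 to 22257.5 scaled reads against 5507 to 6726, and did not pass (1.05, adjusted p = 0.0563). Without it the ranges overlapped, at 134 to 207 and 102 to 159. Marco was lower without overlap, at 0 to 15.2 scaled reads against 43.5 to 49.6, and did not pass (−2.81, adjusted p = 0.0585), nor did Mrc1 (0.26, adjusted p = 0.354). Of these 7 genes Siglec5 fell (−1.52, adjusted p = 0.00248) and 6 did not pass. Of 7 endothelial markers Vwf rose (0.88, adjusted p = 0.0191) and 6 did not pass, Pecam1 and Cdh5 among them (adjusted p = 0.227 and 0.368). Of 4 tested mesothelial markers Upk1b rose (0.49, adjusted p = 0.0469), and Msln did not pass (1.30, adjusted p = 0.0647). Of 6 airway cartilage markers 2 were tested, Hapln1 fell (−1.01, adjusted p = 0.0342), Chad did not pass (−0.40, adjusted p = 0.102), and the sum was 11.3 to 14.2 against 15.1 to 21.8, with Col2a1, Acan, Comp and Matn1 near 0. None of 7 pulmonary vein cardiomyocyte or 7 epithelial markers was called by limma, with Actc1 and Myh6 at adjusted p = 0.857 and 0.172. Of these markers 1 was higher and 1 lower at an unadjusted p under 0.05 by limma, beside 13.3% of all tested genes in each direction. At the same limit 2 macrophage markers were lower and 3 higher, and 1 endothelial marker was lower and 1 higher. Likewise 2 mesothelial markers were higher and 2 airway cartilage markers lower. Of all tested genes 2.18% were called lower and 1.87% higher after adjustment. No marker list had a gene at 0 in every library. With 1 library left out, Acta2, Tagln and Siglec5 passed in each of the 8 fits. Cnn1, Hapln1, Vwf, Higd1b, Inmt and Upk1b lost their calls on leaving out replicate 2 of NOS-null marrow or any of replicates 1 to 3 of WT marrow, and all of these but Vwf on leaving out replicate 4 of WT marrow. Inmt lost its call also without NOS-null marrow replicates 1 or 3, Higd1b without replicate 4 and Upk1b without replicates 3 or 4 (adjusted p up to 0.131).

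**Figure D5:**
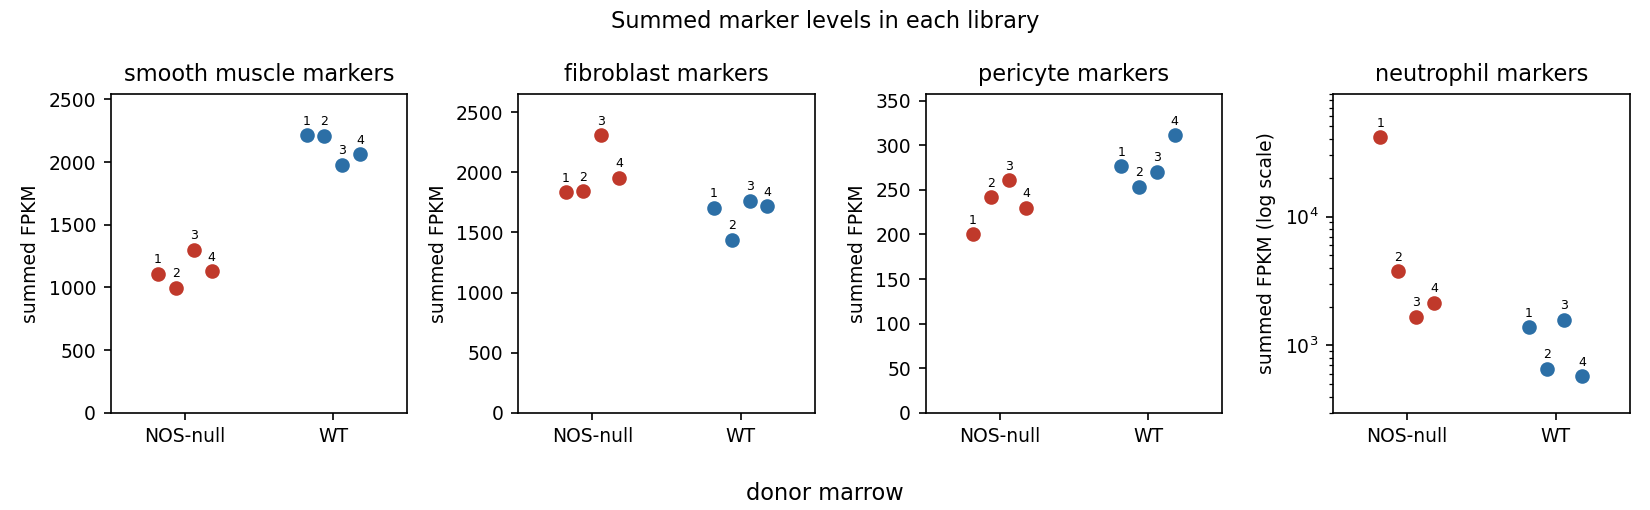
Summed FPKM (y axis, log scale for neutrophils) of 4 marker lists in each library, labelled by replicate number, NOS-null marrow in red and WT marrow in blue. Smooth muscle sums, mostly Acta2 and Tagln, do not overlap between groups, and the neutrophil sum of NOS-null marrow replicate 1 is 41425.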

How the data were processed

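Per the labels' protocols, mRNA of whole lung was made into libraries with a KAPA kit and read as 75 bp single ends on an Illumina HiSeq. The tools, per the submitters' processing notes, were CASAVA 1.8.2, TopHat2 2.0.13, Bowtie2 2.2.3, SAMtools 0.1.19 and Cufflinks 2.2.1, with build mm10. The gene annotation, the filters and the strand setting are not given in sources used here. The deposited count-scale table holds signal values, gene read counts that the authors divided by a size factor per library. The deposited FPKM table served for levels between genes, for sums and as an alternative. Groups came from sample titles, because the series' design text gives both groups the same donor.

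The test was limma 3.58.1 (R 4.3.3, trend on), for genes with 10 or more scaled reads in 4 or more libraries, on log2(value + 1), without covariates. The members and lists were chosen with earlier results of these data known. Named are the members, Nos genes, called genes of each list with the 3 (markers: 2) of most scaled reads, the 5 genes most like a called member, and, chosen after their values were seen, Myh11, Lmod1, Synpo2, Marco, cartilage genes near 0 and the separated genes of the closing section. Alternatives were pseudocounts of 0.5 and 5, other filters, rescaling by trimmed means (TMM), FPKM, limma without trend or robust, a replicate block, and libraries left out. On simulated data (13883 genes tested) the procedure recovered 47.8% of 1.5-fold, 83.6% of 2-fold and 93.9% of 4-fold changes. Positions are from GENCODE M21 (GRCm38, the assembly of mm10).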

Additional observations from a re-analysis of the deposited data

Results flagged for a closer look

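In 2 of the 20 groups of 4 values checked, 1 library lay far from the other 3, where chance alone gives about 1 in 20. Fbln5 was at 909 scaled reads in NOS-null marrow replicate 1, below the 1356 to 1426 of the other 3. Emilin1 was at 1195 in WT marrow replicate 4, above the 1006 to 1028 of the other 3. NOS-null marrow replicate 1 is also the library with the highest neutrophil marker sum, and the part of this in the Fbln5 value was not tested.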

How the results depend on the processing

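Loxl2 was called lower, and no other member was called, in the 10 fits that changed a setting or left out both NOS-null marrow replicates 1 and 2. In those fits its log2 change ran from −1.02 to −0.78 and its adjusted p from 0.00422 to 0.0439. With 1 library left out, the number of members called lower ran from 0 to 1 and of members called higher stayed at 0, Loxl2 ranged from −1.098 to −0.83, and it was lost without WT marrow replicate 1 or 2. The number of all genes called was 567. It was 185 without the trend, 135 with the replicate block, 181 without both NOS-null marrow replicates 1 and 2, and 71 to 798 with 1 library left out, and the cause was not tested. Leaving out replicate 2 of NOS-null marrow gave 95, and leaving out replicates 1 to 4 of WT marrow gave 71, 81, 87 and 233 in that order. The labels do not say whether replicate numbers pair the mice. Correlations of same-numbered deviations ran from −0.0027 to 0.17, and 2 of 4 libraries in each group were closest to their own number. With 4 pairs these values cannot decide it. The replicate block changed no call among the members (Loxl2 adjusted p = 0.0253), and of the called list genes Postn, Adamtsl4, Tgfbr3, Cnn1, Inmt, Higd1b, Upk1b and Hapln1 did not pass with it. Without the trend, and again without both NOS-null marrow replicates 1 and 2, Adamtsl4, Postn, Slpi, Tgfb2, Tgfbr3, Cnn1, Inmt and Higd1b did not pass, nor did Upk1b in the first of these fits and Hapln1 in the other. Adamtsl4, Inmt, Upk1b and Hapln1 did not pass without a filter, and Adamtsl4 and Upk1b did not in FPKM. Acta2, Tagln, Vwf and Siglec5 passed in these 10 fits. The log2 change of Fbln5 ran from −0.18 to 0.0361 and that of Mfap4 from −0.2546 to 0.0814 with 1 library left out. Both turned positive without NOS-null marrow replicate 1, and without replicates 1 and 2 they were 0.0483 and 0.1189. With the filter at 50 Loxl4 was not tested. The planned count models were not run, because 9 to 16 values per library lay below the step of 1 read. With 4 mice a group, 47.8% of simulated 1.5-fold changes were recovered. That rate covers genes of every spread, in a simulation with 156 genes called against 567 in the data. It is not a rate for Eln, which was 1.54-fold lower, and cannot tell whether a change of Eln was missed.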

Other observations

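Among the 66 tested genes of the 6 pathway lists, the NOS-null marrow values all lay below WT marrow for 7 (10.6%) and all above for 11 (16.7%), beside 9.29% and 7.82% of all tested genes. Of these, 5 of the lower and 8 of the higher genes did not pass. They are named here after their values were seen, apart from Thbs1, Timp3 and Tgfbi, which are among those named above. Emilin2, a relative of Emilin1, was at 997 scaled reads in NOS-null marrow replicate 1, 205 to 273 in the other 3, and 74.7 to 148 in WT marrow (log2 change 1.66, adjusted p = 0.0593). Its sign is the opposite of that of Emilin1. Mfap5, a microfibril protein gene, was at 191, 361, 513 and 405 in NOS-null marrow replicates 1 to 4 and 535 to 770.03 in WT marrow (−0.88, adjusted p = 0.07). Timp1, a metalloproteinase inhibitor gene, was at 88.2 to 505 with NOS-null marrow and 508 to 1001 with WT marrow (−1.47, adjusted p = 0.0909). The gelatinase gene Mmp9 was at 2215 in NOS-null marrow replicate 1, 212 to 377 in the other 3 and 93.7 to 182 in WT marrow (1.91, adjusted p = 0.0839). The TGF-beta ligand gene Tgfb3 was at 313 to 484 with NOS-null marrow and 497 to 616 with WT marrow (−0.51, adjusted p = 0.0532). Pcolce, the gene of a procollagen C-proteinase enhancer, was at 945 to 1658 against 1766 to 1947 (−0.45, adjusted p = 0.111). The protease gene Adam8 was at 277 to 719 against 149 to 248 (1.11, adjusted p = 0.051), and Mmrn2, a relative of the EMILIN genes, at 569 to 849 against 394 to 526 (0.49, adjusted p = 0.0713). The receptor gene Tgfbr1 was at 615 to 923 against 535 to 576 (0.34, adjusted p = 0.111), and Smad4 at 1213 to 1570 against 1122 at most (0.29, adjusted p = 0.107).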
